A study of Mus musculus with 12 samples.

Results

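The genes described here are 9 mouse snoRNA host genes: Gas5, Zfas1, Snhg1, Snhg3, Snhg5, Snhg6, Snhg8, Snhg12 and Snhg15. They were taken by symbol from a table of raw read counts that holds 27179 Entrez gene IDs, so they are 9 of 27179, and all 9 passed the filter on low counts that left 12910 genes for testing. The cells were MC38-idAdpgkG, made from MC38 mouse colon carcinoma cells (C57BL/6 strain) by stable transfection with an over-expression construct for mutant Adpgk(R304M) fused to turboGFP. The labels describe the construct as inducible and degradable. Doxycycline is a common inducer of such constructs, and dTAG-13 is a degrader that brings tagged proteins to cereblon for ubiquitination. Protein levels were not analysed here. All cells, controls included, carried the construct and received 20 ng/mL mouse interferon-gamma (IFNg). The control group had IFNg alone for 51 h, and the doxycycline group had IFNg with 1 µg/mL doxycycline for 51 h. The dTAG-13 group had IFNg for 48 h and then 1 µM dTAG-13 as well for 3 h, and the fourth group had IFNg with doxycycline for 48 h and then dTAG-13 for 3 h. No promoter, clone number or vehicle is named in the sources used here. The 3 libraries of a group are technical replicates of 1 biological sample. Every error and p-value below therefore covers library preparation and counting within 1 culture, and every difference is one between single cultures.

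A snoRNA host gene is transcribed and spliced like a messenger RNA gene, but its introns carry small nucleolar RNAs, which are trimmed out after splicing and guide the chemical modification or the cleavage of ribosomal RNA. Box C/D snoRNAs guide methylation and box H/ACA snoRNAs guide pseudouridylation. The spliced exons of the non-coding hosts have short reading frames with stops well before the last exon junction, and several, Gas5 among them, are textbook substrates of nonsense-mediated decay, which runs during translation. Gas5 takes its name, growth arrest-specific, from its accumulation when growth stops, and its transcript starts with a run of pyrimidines of the kind that ties ribosomal protein mRNAs to growth signals.

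The 9 loci lie on 7 chromosomes and are given here in GRCm38 coordinates with their annotated strand. Gas5 is at chr1:161034601-161038539 (plus), Zfas1 at chr2:167062934-167065862 (plus), Snhg1 at chr19:8723487-8726326 (plus) and Snhg12 at chr4:132308678-132311024 (plus). Snhg3 is at chr4:132351933-132353686 (minus), Snhg5 at chr9:88521052-88522897 (minus), Snhg6 at chr1:9942025-9944118 (minus), Snhg8 at chr3:123507552-123508336 (minus) and Snhg15 at chr11:6525591-6528760 (minus). All 9 are annotated as long non-coding RNAs, with spliced transcripts of 400 nt (Snhg6) to 1004 nt (Snhg5) and 2 to 10 exons. In these transcripts the reading frame from the first ATG runs for 1 to 54 codons, and in 8 of the 9 at least 1 exon junction lies over 50 nt past its stop. Snhg3 is the exception.

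The introns hold 31 annotated snoRNAs, with 9 in Gas5, 8 in Snhg1, 4 in Snhg12, 3 in Zfas1, 2 each in Snhg3 and Snhg5, and 1 each in Snhg6, Snhg8 and Snhg15. By their letters, 20 have a box C (TGATGA) near the start and a box D (CTGA) near the end, 6 have an ACA near the end, and 5 have neither the C and D pair nor the ACA in the windows searched. Printed here, from GENCODE M21, are 3 whose reads are described later and, as an example of the others, 1 of the 9 in Gas5. Capitals mark box C and box D, or the ACA where the search found the pair or the ACA. Snord22 has a CTGA near its end but no TGATGA near its start, and is printed without capitals. Snord12 lies in a Zfas1 intron at chr2:167065276-167065365 (plus), Snord22 in Snhg1 at chr19:8725866-8725991 (plus), Snora73a in Snhg3 at chr4:132352775-132352979 (minus) and Snord47 in Gas5 at chr1:161038082-161038158 (plus).
Snord12: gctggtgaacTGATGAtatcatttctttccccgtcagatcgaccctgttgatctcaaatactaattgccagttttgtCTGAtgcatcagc
Snord22: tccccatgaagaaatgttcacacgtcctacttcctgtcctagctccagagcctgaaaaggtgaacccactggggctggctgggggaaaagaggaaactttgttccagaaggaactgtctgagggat
Snora73a: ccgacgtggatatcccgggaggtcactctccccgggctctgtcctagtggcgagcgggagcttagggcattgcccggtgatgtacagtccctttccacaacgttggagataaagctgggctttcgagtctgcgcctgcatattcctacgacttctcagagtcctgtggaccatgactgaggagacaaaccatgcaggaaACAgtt
Snord47: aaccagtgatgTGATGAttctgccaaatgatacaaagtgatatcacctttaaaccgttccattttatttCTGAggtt

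The letters around the transcription starts are shown because the Gas5 transcript is known to start with a pyrimidine run, as said above. RefSeq start windows (GRCm38.p6) were found for 8 of the 9 genes, Snhg6 being without an entry. Gas5 has 2 annotated starts, so there are 9 windows. A C followed by at least 4 further pyrimidines within 5 bases of an annotated start, on the gene's strand, was present in 4 of the 9 windows, those of Snhg3, Snhg8 and Snhg12 and 1 of the pair for Gas5, and in 18.3% of all 32851 RefSeq promoters. With the C required at the annotated start base itself, 2 of the 9 held such a run, 1 for Gas5 and that of Snhg8, against 2.51% of all. The windows run from 15 bases before to 25 after the annotated start base, with the pyrimidine run in capitals where there is one. They are at chr1:161035151-161035191 (plus) for Gas5, chr3:123508311-123508351 (minus) for Snhg8, chr4:132308663-132308703 (plus) for Snhg12, and chr19:8723472-8723512 (plus) for Snhg1, a member in which the search found no run. The Gas5 window printed is that of the second annotated start; the window of the first, the locus start given above, held no run.
Gas5: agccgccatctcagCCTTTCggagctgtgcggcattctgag
Snhg8: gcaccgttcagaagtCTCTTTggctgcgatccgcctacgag
Snhg12: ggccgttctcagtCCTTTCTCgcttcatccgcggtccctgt
Snhg1: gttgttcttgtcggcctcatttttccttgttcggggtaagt
Over the whole promoter windows (250 bases before to 50 after the start), CCGGAA on either strand, the core that ETS factors bind, was present in 2 of the 9 windows, those of Snhg3 and Snhg5, and in 14.9% of all promoters. CACGTG, the E-box that Myc and related factors bind, was present in 1, that of Snhg15, and in 7.15% of all. These are letter matches and were not tied to binding data.

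Libraries held 22165538 to 32809573 counted reads. Levels are in CPM, reads normalised to library sizes after TMM scaling (trimmed mean of M values). Adpgk, which the construct carries, was at 161 ± 2.49 CPM in control, 1338 ± 20.1 with doxycycline, 181 ± 4.18 with dTAG-13 and 1369 ± 15.7 with both (SD, n = 3), high where doxycycline was given. Of 9 epithelial and colon markers none reached 1 CPM; Epcam and Cdx2 had 0 reads, and the markers summed to 0.282 to 0.939 CPM per library, so the labelled colon origin did not show in these markers. Of 12 markers of leukocytes, macrophages, endothelium and fibroblasts, 5 reached 1 CPM in at least 1 library. Their sum ran from 169 to 184 CPM in control, 154 to 161 with doxycycline, 204 to 217 with dTAG-13 and 157 to 169 with both. Dcn, the fibroblast proteoglycan decorin, made up most of it, and Cd3e was at 0. Col1a1 and Col1a2, also fibroblast markers, reached at most 0.193 and 0.351 CPM, and Pdgfrb ran from 4.41 to 8.49 CPM. In dTAG-13 against control Dcn was called higher, at a log2 fold change of 0.28. That call was lost after the length and GC correction described below, at -0.032 (edgeR adjusted p = 0.464). A part of these markers in the results was not tested.

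The host genes differed in level widely. On the scale of CPM per kilobase of transcript, averaged over the 12 libraries, Gas5 was highest at 413, followed by Snhg1 at 308 and Snhg6 at 172. Snhg8 at 138 and Zfas1 at 131 came next, then Snhg5 at 65.1, Snhg12 at 38.8 and Snhg15 at 33.0. Snhg3 was lowest at 1.40, with 10 to 31 reads per library. Since treatments moved these genes, each gene's range over the libraries is wide, and the ranges of neighbours in this order overlap except for Zfas1 over Snhg5 and Snhg15 over Snhg3. The order of Snhg8 and Zfas1 depended on the group. Snhg8 and Zfas1 stood at 119 and 94.7 in control, 108 and 86.6 with doxycycline, and 170 and 158 with both. With dTAG-13 alone Snhg8, at 155, was below Zfas1, at 184.

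After 3 h of dTAG-13, 8 of the 9 host genes rose, both in cells without doxycycline and in cells with it. Summed over the 9 genes, the level was 610.4 ± 10.7 CPM in control and 1019.9 ± 43.6 CPM with dTAG-13, and 602 ± 6.20 CPM with doxycycline and 999.6 ± 27.2 CPM with both (SD, n = 3). In the test of all genes (edgeR quasi-likelihood, Benjamini-Hochberg adjusted p under 0.05), 62.1% of 12910 genes were called in dTAG-13 against control, with 30.0% of all genes higher. Among doxycycline-treated cells 64.1% were called, with 30.7% higher. The 8 called host genes had no overlap between the groups in either comparison, a pattern that 32.2% and 32.1% of all genes showed in the higher direction. The median log2 fold change of the 9 was 0.68 without doxycycline and 0.71 with it, beside 0.019 and 0.0032 for all genes. A log2 fold change above 0.5 was reached by 8 of the 9 in each, and by 8.51% and 9.13% of all genes. Without doxycycline these 8 include Snhg3, which was not called, and leave out Snhg8, which was called at 0.37. The median of 0.68 without doxycycline is the value of Snhg3 itself. In bulk RNA of this kind, a change in the make-up of the cells and a change in RNA per cell cannot be told apart.

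**Figure D1:**
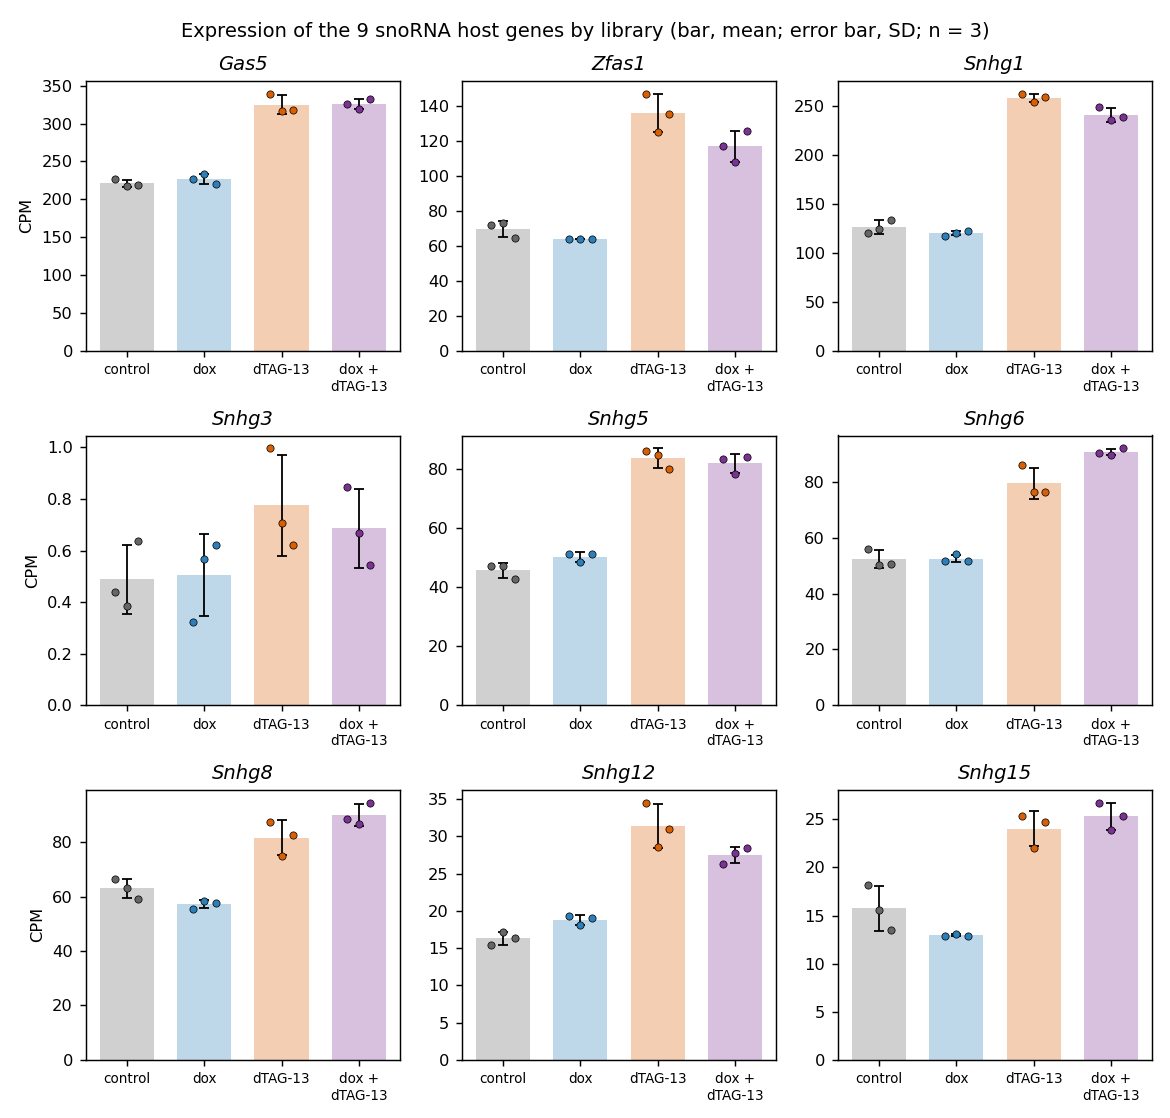
CPM (y axis, starting at 0) of the 9 host genes in the 4 treatment groups (x axis; dox, doxycycline); points are the 3 technical libraries, bars the mean and error bars the SD. In every gene but Snhg3, the 6 libraries with dTAG-13 lie above the 6 without it.

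Snhg1, host of 8 snoRNAs in the intervening sequences of an otherwise non-coding transcript, moved most without doxycycline. In the 3 control libraries Snhg1 was counted at 119.9, 124 and 134 CPM, with doxycycline at 118, 120.3 and 122, with dTAG-13 at 262, 254 and 259, and with both at 249, 235 and 239. Both dTAG-13 groups lay well above the level of the groups without it, with no overlap. The fold change was 2.05, or log2 1.04 (SE 0.0302, adjusted p = 4.77e-27), without doxycycline and 2.01, or log2 1.00 (SE 0.0306, adjusted p = 3.68e-26), with it.
Zfas1, the antisense RNA at the start of Znfx1, holds 3 related box C/D snoRNAs of the Snord12 family. Zfas1 stood at 71.9, 73.2 and 64.7 CPM in the control libraries and 64.0, 63.9 and 63.9 with doxycycline, and at 147, 125 and 135 with dTAG-13 and 117, 108 and 126 with both. The levels with dTAG-13 spread more widely between libraries than those without, but the groups stayed apart. For Zfas1 the rise on the log2 scale was 0.96 (SE 0.0746, adjusted p = 1.99e-06) without doxycycline and 0.87 (SE 0.0770, adjusted p = 4.78e-06) with it.
Gas5, the most abundant of the 9 genes, rose less steeply. In the 3 control libraries Gas5 was counted at 227, 218 and 219 CPM, with doxycycline at 226, 233 and 219.7, with dTAG-13 at 339, 317 and 318, and with both at 325, 319 and 333. The 3 libraries of each group were close together, and the groups with dTAG-13 overlapped each other. Its log2 fold change was 0.56 (SE 0.0270, adjusted p = 1.12e-20) without doxycycline and 0.53 (SE 0.0271, adjusted p = 7.70e-20) with it.

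Snhg5, host of the box C/D snoRNAs Snord50a and Snord50b, rose with dTAG-13 in both settings. Snhg5 stood at 47.2, 47.0 and 42.9 CPM in the control libraries and 51.2, 48.4 and 51.2 with doxycycline, and at 86.3, 84.9 and 80.0 with dTAG-13 and 83.4, 78.3 and 84.0 with both. The groups with and without dTAG-13 did not overlap. The rise in log2 units was 0.87 (SE 0.0414, adjusted p = 2.25e-21) without doxycycline and 0.71 (SE 0.0416, adjusted p = 2.68e-18) with it.
Snhg12, which holds 4 snoRNAs, gave its highest level with dTAG-13 alone. In the 3 control libraries Snhg12 was counted at 15.4, 17.2 and 16.4 CPM, with doxycycline at 19.3, 18.1 and 19.0, with dTAG-13 at 34.5, 28.6 and 31.0, and with both at 26.3, 27.8 and 28.4. The doxycycline libraries lay above the control libraries, and those with dTAG-13 alone above those with both. The log2 fold change of Snhg12 was 0.94 (SE 0.0632, adjusted p = 1.54e-16) without doxycycline and 0.55 (SE 0.0640, adjusted p = 7.10e-10) with it.
Snhg15, with Snora9 in an intron, was lowest with doxycycline alone. Snhg15 stood at 18.2, 15.6 and 13.5 CPM in the control libraries and 12.9, 13.1 and 12.9 with doxycycline, and at 25.4, 22.0 and 24.7 with dTAG-13 and 26.7, 23.9 and 25.4 with both. The doxycycline libraries lay below the control libraries, and the groups with dTAG-13 overlapped. The log2 fold change was 0.60 (SE 0.0755, adjusted p = 2.44e-08) without doxycycline and 0.97 (SE 0.0788, adjusted p = 1.76e-12) with it.

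Snhg6, host of Snord87, was highest with both agents. In the 3 control libraries Snhg6 was counted at 56.0, 50.2 and 50.7 CPM, with doxycycline at 51.9, 54.0 and 51.8, with dTAG-13 at 86.0, 76.3 and 76.4, and with both at 90.4, 89.7 and 92.0. Control and doxycycline libraries overlapped, and all libraries with dTAG-13 lay above them. For Snhg6 the log2 fold change was 0.60 (SE 0.0435, adjusted p = 1.21e-14) without doxycycline and 0.79 (SE 0.0437, adjusted p = 6.88e-18) with it.
Snhg8, host of the box H/ACA snoRNA Snora24, showed the smallest rise of the 8 without doxycycline. Snhg8 stood at 66.4, 63.3 and 59.2 CPM in the control libraries and 55.5, 58.4 and 57.5 with doxycycline, and at 87.5, 74.9 and 82.7 with dTAG-13 and 88.6, 86.6 and 94.4 with both. The lowest library with dTAG-13 was still above the highest control library. Its log2 fold change was 0.37 (SE 0.0511, adjusted p = 2.09e-06) without doxycycline and 0.66 (SE 0.0519, adjusted p = 5.48e-10) with it.
Snhg3, host of Snora73a and Snora73b, is the gene that was not called. It had 14, 12 and 18 reads in the control libraries, 10, 17 and 18 with doxycycline, 31, 22 and 18 with dTAG-13 and 19, 17 and 17 with both, and the groups overlapped. Its log2 fold change of 0.68 without doxycycline (95% interval 0.022 to 1.34, adjusted p = 0.0765) was as large as that of called members, and that with doxycycline was 0.42 (95% interval -0.27 to 1.11, adjusted p = 0.307). At this depth no difference was called in the main fit. Without doxycycline 2 of 19 alternative fits called Snhg3, among them that without control library 3, at 0.90 (edgeR adjusted p = 0.0473). With doxycycline 0 of 19 did. Snhg3 shares its strand and part of its span with annotated transcripts of Rcc1, and reads of the pair may have been split between them.

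Doxycycline plus dTAG-13 against control, which shares its libraries with the comparisons above, called 8 of the 9 genes higher, where 66.3% of all genes were called, 32.5% higher and 33.8% lower. Log2 fold changes of the 8 ran from 0.51 (Snhg8) to 0.93 (Snhg1), and Snhg3 stood at 0.47 (edgeR adjusted p = 0.244).

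Transcript length moved with the response to dTAG-13 across all genes, and the host genes are short. Over the 12450 tested genes with a known length, Spearman's rho between length and log2 fold change was -0.45 without doxycycline and -0.59 in doxycycline-treated cells, given as a description across genes of the same libraries. All 9 host genes fell in the shortest eighth of genes (1557 genes of 66 to 1211 nt). In that eighth the median log2 fold change was 0.24 without doxycycline, with 52.2% of the genes called higher, and 0.41 with doxycycline, with 66.7% called higher. The host gene medians of 0.68 and 0.71 were above both. Each of the 9 genes had a log2 fold change above the median of the shortest eighth in both comparisons, Snhg3 by the narrowest margin with doxycycline.
When the trend with length and GC content was removed from each library before testing, 6 of the 9 genes were called higher in each comparison, where 22.3% of all genes were called higher without doxycycline and 23.5% with it. The median over the 9 became 0.34 and 0.11. Without doxycycline the corrected log2 fold changes were 0.78 for Zfas1, 0.64 for Snhg12, 0.53 for Snhg5, 0.53 for Snhg1, 0.34 for Snhg15 and 0.29 for Gas5, all called. Snhg6 at 0.076 (edgeR adjusted p = 0.0857) and Snhg8 at -0.0082 (edgeR adjusted p = 0.878) lost their calls. With doxycycline, Zfas1 at 0.56, Snhg15 at 0.53, Snhg1 at 0.36, Snhg5 at 0.28, Snhg8 at 0.11 and Gas5 at 0.10 were called. Snhg6 at 0.076 (edgeR adjusted p = 0.0927) and Snhg12 at 0.086 (edgeR adjusted p = 0.252) were not. In doxycycline plus dTAG-13 against control 7 were called higher (23.9% of all genes were called higher), with Snhg8 at 0.0023 (edgeR adjusted p = 0.964). The correction also removes any true change that runs with length, and which part of the rise each source makes was not tested.

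**Figure D2:**
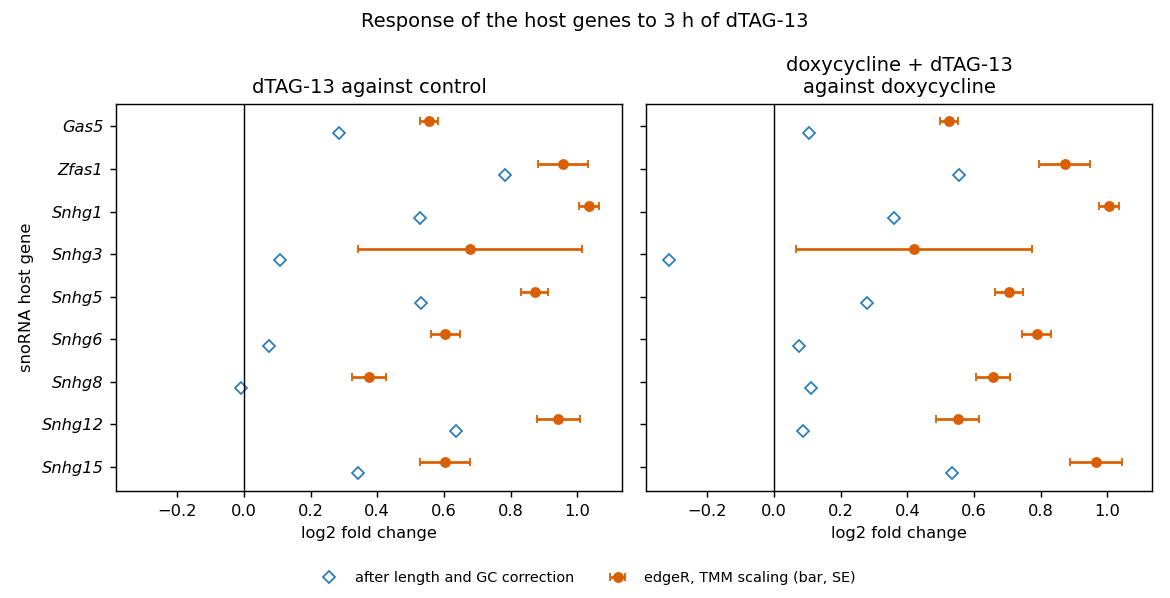
Log2 fold change (x axis) of each host gene (y axis) for dTAG-13 against control (left) and doxycycline plus dTAG-13 against doxycycline (right); filled circles are edgeR estimates with their SE, open diamonds the estimates after the length and GC correction. Every diamond lies left of its circle, and those of Snhg6 and Snhg8 without doxycycline lie near 0.

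**Figure D3:**
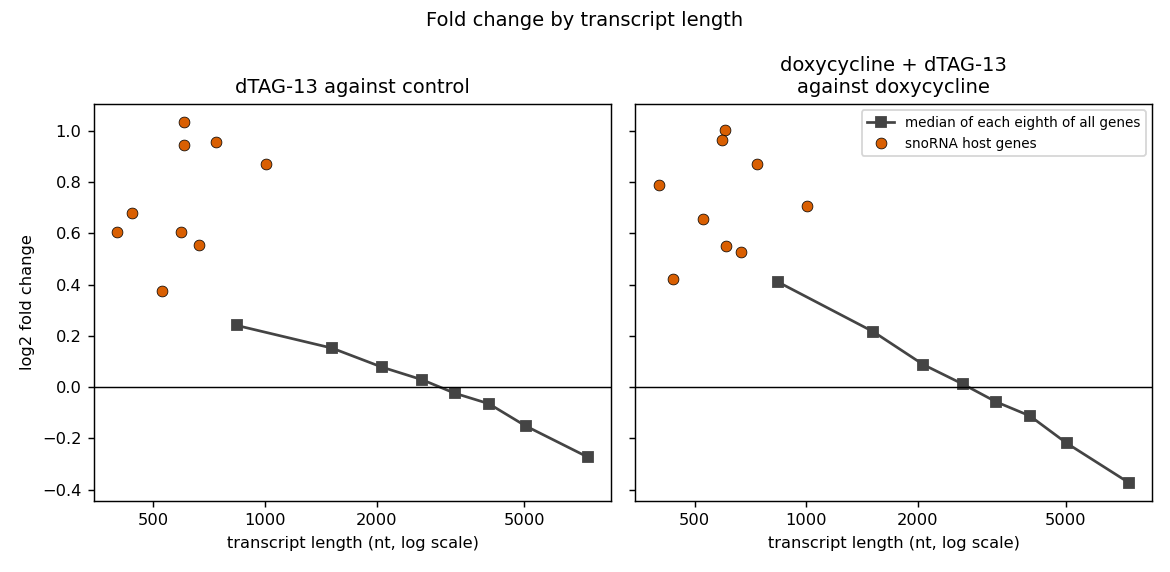
Log2 fold change (y axis) against transcript length in nt (x axis, log scale) for the same comparisons; grey squares are the medians of 8 equal groups of genes by length, and circles are the 9 host genes. Medians fall from the short to the long groups, and the host genes lie above the median of the shortest.

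Doxycycline alone gave small changes in both directions, where 33.5% of all genes were called. Among the host genes 2 rose (14.8% of all genes were higher) and 2 fell (18.7% were lower), and 5 were not called. Snhg12 rose by log2 0.20 (SE 0.0674, adjusted p = 0.0159) and Snhg5 by log2 0.14 (SE 0.0435, adjusted p = 0.0132), in each case with no overlap between the control and doxycycline libraries. Snhg15 stood at log2 -0.29 (SE 0.0823, adjusted p = 0.00649) and Snhg8 at log2 -0.14 (SE 0.0530, adjusted p = 0.0448), both lower and again without overlap. No overlap in the higher direction was seen for 19.8% of all genes and in the lower direction for 24.1%. Zfas1 at -0.13 (adjusted p = 0.261), also without overlap, and Snhg1 at -0.070 (adjusted p = 0.0855) were not called, and neither were Gas5 at 0.034, Snhg6 at 0.0063 and Snhg3 at 0.051, whose 95% intervals were -0.019 to 0.088, -0.083 to 0.095 and -0.67 to 0.77 (edgeR adjusted p = 0.364, 0.935 and 0.935).
Each of the 4 calls was lost without at least 1 single library. The Snhg15 call was lost without control library 1, the highest of its group, and the Snhg5 call without control library 3 or doxycycline library 3. The Snhg12 call was lost without control library 1 or doxycycline library 1 or 3, and the Snhg8 call without any of 7 single libraries: control 1 or 2, any doxycycline library, library 1 of those with both agents or dTAG-13 library 3. Over the 12 such fits the log2 fold change ran from -0.39 to -0.18 for Snhg15, 0.090 to 0.17 for Snhg5, 0.16 to 0.26 for Snhg12 and -0.19 to -0.11 for Snhg8, each without a change of sign.

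Whether doxycycline altered the response to dTAG-13 was tested with the interaction term, the log2 fold change with doxycycline minus that without it. It was called for 22.9% of all genes, with 13.2% above 0 and 9.64% below. For Snhg12 the response was smaller with doxycycline, at -0.39 (SE 0.0903, adjusted p = 0.00122), and this call held in all 19 alternative fits. For Snhg8 it was larger, at 0.28 (SE 0.0729, adjusted p = 0.00792), and for Snhg15 also, at 0.36 (SE 0.110, adjusted p = 0.0154). Snhg6 at 0.18 (SE 0.0617, adjusted p = 0.0280) and Snhg5 at -0.17 (SE 0.0587, adjusted p = 0.0345) passed the threshold by less. Gas5 at -0.029 (95% interval -0.10 to 0.046), Snhg1 at -0.032 (-0.12 to 0.052), Zfas1 at -0.085 (-0.30 to 0.13) and Snhg3 at -0.26 (-1.22 to 0.70) were not called.
The 9 genes gave 3 positive and 2 negative calls and did not move together in this term. Without single libraries, the Snhg15 call was lost 3 times (control 1, doxycycline 1 or dTAG-13 library 2), the Snhg5 call 6 times (control 3, doxycycline 1 or 3, library 2 with both agents, dTAG-13 1 or 2) and the Snhg6 call 7 times (control 1, doxycycline 1 or 3, library 1 or 3 with both agents, dTAG-13 2 or 3). Their log2 values over these fits ran from 0.25 to 0.46, -0.20 to -0.12 and 0.14 to 0.23. The length and GC correction moved these calls: Snhg12 at -0.55, Snhg5 at -0.25, Gas5 at -0.18 and Snhg1 at -0.17 were called, all negative, where 15.3% of all genes were called above 0 and 6.61% below, while Snhg8 at 0.12, Snhg15 at 0.19 and Snhg6 at -0.00055 were not (edgeR adjusted p = 0.121, 0.181 and 0.996).

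**Figure D4:**
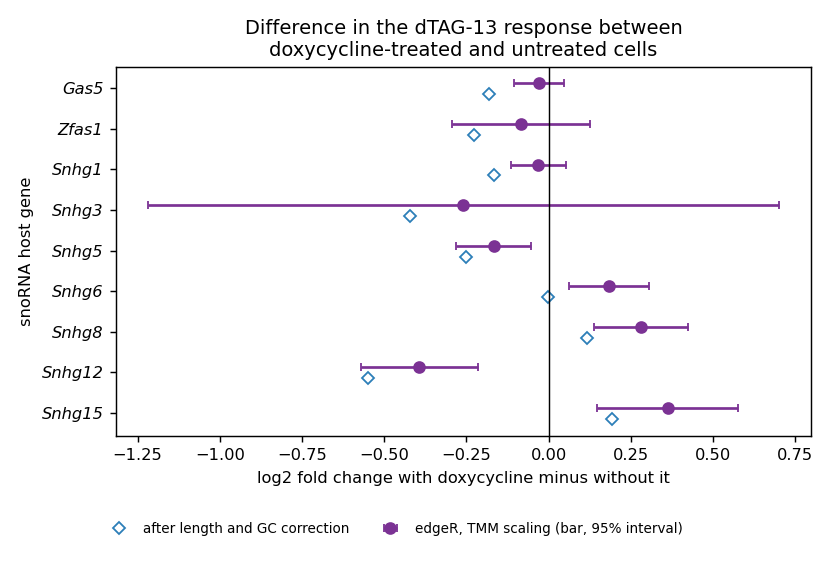
Difference between the dTAG-13 response with and without doxycycline (x axis, log2) for each host gene (y axis); circles are edgeR estimates with 95% intervals and open diamonds the estimates after the length and GC correction. Among the called genes, Snhg6, Snhg8 and Snhg15 lie to the right of 0 and Snhg5 and Snhg12 to the left. The circles of Gas5, Snhg1, Zfas1 and Snhg3, not called, also lie left of 0, with intervals that include 0. Every diamond lies left of its circle.

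The groups that both received dTAG-13 were also compared directly. In doxycycline plus dTAG-13 against dTAG-13, 20.4% of all genes were called, 10.7% higher and 9.64% lower. Snhg6 was higher with doxycycline, at log2 0.19 (SE 0.0419, adjusted p = 9.06e-04), and Snhg1 at log2 -0.10 (SE 0.0292, adjusted p = 0.0106) and Snhg12 at log2 -0.19 (SE 0.0601, adjusted p = 0.0210) were lower. Zfas1 at -0.21 (adjusted p = 0.0698) and Snhg8 at 0.14 (adjusted p = 0.0547) missed the threshold, and for Gas5, at 0.0052, the 95% interval was -0.047 to 0.057. The Snhg1 call was lost without library 2 or 3 of those with both agents or dTAG-13 library 1 or 3, and the Snhg12 call without library 1 of those with both agents or dTAG-13 library 1, with log2 values over all such fits of -0.12 to -0.085 and -0.25 to -0.11. After the length and GC correction Snhg6 stood at 0.033 (edgeR adjusted p = 0.598), and 5 genes were called lower: Snhg1, Snhg12, Zfas1, Snhg5 and Gas5. After this correction 9.23% of all genes were higher and 8.24% lower.

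Of the 31 snoRNAs inside the host genes, 11 had rows of their own in the count table, and 6 of these passed the filter. Libraries were made from poly(A) RNA, and these rows count few reads. Snord22, inside Snhg1, had 40, 55 and 33 reads in control, 62, 48 and 65 with doxycycline, 117, 106 and 122 with dTAG-13 and 138, 129 and 138 with both. Its log2 fold change was 1.43 (SE 0.180, adjusted p = 5.76e-09) without doxycycline and 1.40 (SE 0.166, adjusted p = 1.09e-09) with it, and the groups did not overlap. Reads on Snord22 were 1.12% of those on Snhg1 in control, 1.62% with doxycycline, 1.46% with dTAG-13 and 2.13% with both, pooled over libraries.
Snord12, inside Zfas1, had 18, 18 and 5 reads in control, 30, 19 and 11 with doxycycline, 55, 47 and 49 with dTAG-13 and 45, 26 and 42 with both. Its log2 fold change was 1.87 (SE 0.322, adjusted p = 3.85e-06) and 1.101 (SE 0.313, adjusted p = 0.00238). Snora73a, inside Snhg3, had 19, 19 and 12 reads in control, 22, 20 and 21 with doxycycline, 40, 55 and 45 with dTAG-13 and 33, 31 and 62 with both, which is more than its host in every group. It rose by log2 1.48 (SE 0.271, adjusted p = 8.87e-06) and 1.17 (SE 0.263, adjusted p = 1.72e-04), while the host itself was not called.
Within Snhg12, Snora61 had 7, 1 and 3 reads in control and 4, 7 and 2 with doxycycline. With dTAG-13 it had 17, 17 and 12, and with both 6, 13 and 20. Snora16a had 10, 7 and 3 in control and 11, 6 and 9 with doxycycline. With dTAG-13 it had 16, 14 and 12, and with both 10, 13 and 20. Neither row would have passed the filter without the libraries with dTAG-13, so their selection favoured a higher level there. Snora61 stood at log2 2.02 (adjusted p = 9.92e-04) and 1.73 (adjusted p = 0.00402). Snora16a stood at 1.06 (adjusted p = 0.0351) without doxycycline and 0.89 (adjusted p = 0.0564, not called) in doxycycline-treated cells. These p-values do not allow for that selection. The Snora16a call was lost in 7 of 19 alternative fits, whose edgeR or DESeq2 adjusted p ran from 0.0641 to 0.323: DESeq2, no filter, the length and GC correction, and without control library 2 or 3 or dTAG-13 library 1 or 2. Its log2 value over all 19 was 0.53 to 1.42. Snord87, inside Snhg6, was not called at 0.54 (adjusted p = 0.437) and 0.85 (adjusted p = 0.186). After the length and GC correction, dTAG-13 against control still called Snord12 at 1.19, Snord22 at 0.96, Snora73a at 1.14 and Snora61 at 1.66, but not Snora16a at 0.53. In doxycycline-treated cells it called Snord22 at 0.62 but not Snora61 at 1.05, Snora73a at 0.54 or Snord12 at 0.085 (edgeR adjusted p = 0.100, 0.0897 and 0.846).
Snora24 and Snora73b had 0 reads in all 12 libraries, and a count of 0 allows up to 3 reads over the 351698267 reads of the 12. Snora73b is 205 nt long, as is Snora73a, and has the same base at 198 positions, so reads of the pair may have been assigned to 1 of them or to neither. Reads on unspliced or retained introns of the host and on the snoRNA itself cannot be told apart here. Those on Snora73a may also come from Rcc1, which shares part of the span of Snhg3 and stood at 220 CPM in control. The limit of 3 reads covers counting error only.

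**Figure D5:**
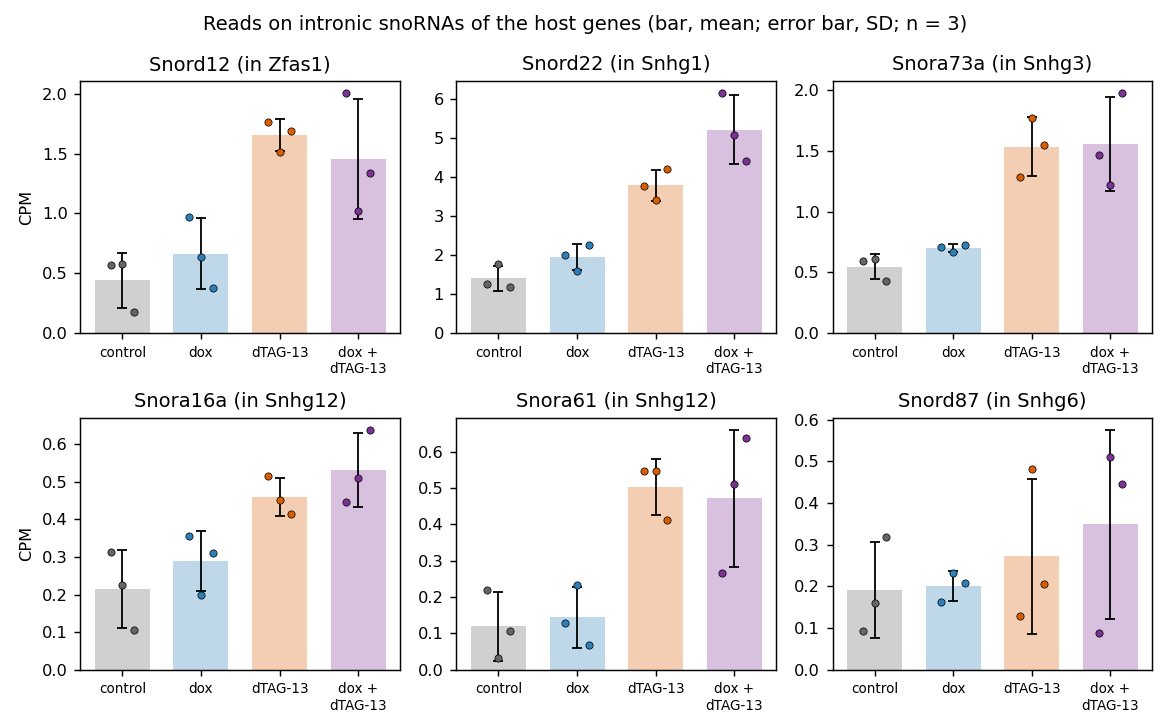
CPM (y axis, starting at 0) of the 6 intronic snoRNA rows that passed the filter in the 4 groups (x axis; dox, doxycycline); points are libraries, bars means and error bars SD (n = 3). For Snord12, Snord22, Snora73a, Snora16a and Snora61 the libraries with dTAG-13 alone lie above the control libraries, and for Snord87 they overlap. Snora16a, Snora61 and Snord87 would not have passed the filter without the libraries with dTAG-13.

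Genes next to the host genes on the opposite strand gave smaller or opposite values. Znfx1, a zinc finger helicase gene whose start lies 81 bp from that of Zfas1, with 82 bp of overlap, moved the other way: its log2 fold change was -0.28 (adjusted p = 9.65e-07) without doxycycline and -0.53 (adjusted p = 1.63e-13) with it, and it was higher with doxycycline alone at 0.17 (adjusted p = 0.00158). With the length and GC correction Znfx1 stood at 0.12 without doxycycline and was called higher (edgeR adjusted p = 0.0129), so the direction turned. In doxycycline-treated cells it stood at -0.073 after the correction and was not called (edgeR adjusted p = 0.154). Slc3a2, the heavy chain of amino acid transporters, starts 118 bp from Snhg1 and was lower with dTAG-13 at -0.10 (adjusted p = 3.70e-05) and higher in doxycycline-treated cells at 0.18 (adjusted p = 3.70e-10). With library size alone the first value was -0.012 (edgeR adjusted p = 0.630) and was not called. Zbtb37 starts 263 bp from Gas5 and was not called in either dTAG-13 comparison, at 0.0032 and 0.058. Mcmdc2, which overlaps Snhg6 by 1582 bp, had 0 to 5 reads per library. Whether counting used strand is not given in the sources used here, so reads in overlapping stretches cannot be assigned with certainty.

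Other non-coding snoRNA host genes also rose. Of 12 such genes 10 were tested; 8 rose in dTAG-13 against control (median 0.51) and 9 in doxycycline plus dTAG-13 against doxycycline (median 0.75), against the backgrounds of 30.0% and 30.7% of all genes higher. The length and GC correction could act on the 8 of these with a known transcript length, not on Snhg4 and Snhg7. Of the 8, it left 6 and 5 called higher, where 22.3% and 23.5% of all genes were, and 1 called lower without doxycycline, Snhg10 at -0.41 (edgeR adjusted p = 0.0175), where 31.4% of all genes were. Snhg16 had log2 fold changes of 1.01 (edgeR adjusted p = 6.48e-18) and 1.23 (1.10e-20), from 14.2 ± 0.633 CPM in control to 28.4 ± 1.27 with dTAG-13. Dancr stood at 1.097 and 1.06. Those not called, named after their values were seen, were Snhg9 at 0.13 and Snhg10 at -0.089 without doxycycline and Snhg18 at 0.12 with it. In doxycycline against control edgeR called 0 of the 10, beside 33.5% of all genes, and DESeq2 called 0. Of the 10, 3 had an unadjusted edgeR p under 0.05.
Protein-coding snoRNA hosts, which include ribosomal protein and translation factor genes, moved in both directions. Of 22, 8 rose and 8 fell in dTAG-13 against control (median 0.081), shares near the 30.0% and 32.1% of all genes that were higher and lower. In doxycycline-treated cells 16 rose and 5 fell (median 0.35), beside 30.7% and 33.4% of all genes. After the length and GC correction the counts were 6 and 11 in the first comparison, beside 22.3% and 31.4% of all genes, and 8 and 6 in the second, beside 23.5% and 27.2%. The median of the first became -0.15. Eif4a2, an RNA helicase of translation initiation, rose by log2 0.75 without doxycycline and Rpl13a, a ribosomal protein gene, by 0.65 with it. Prrc2a stood at -0.88 and -0.77, lower in both. Rcc1 at -0.33 and the nucleolin gene Ncl at -0.25 were the members that fell most with doxycycline alone, where 2 rose and 8 fell, beside 14.8% and 18.7% of all genes.

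Genes of the nonsense-mediated decay pathway, of which several host transcripts are known substrates, mostly fell with dTAG-13. Decay of the host transcripts was not measured, and a link between these falls and the rise of the host genes was not tested. Of 17 nonsense-mediated decay factors 16 fell and 1 rose in dTAG-13 against control (median -0.36), where 32.1% of all genes were lower and 30.0% higher. In doxycycline-treated cells 13 fell and 3 rose (median -0.32), where 33.4% of all genes were lower and 30.7% higher. After the length and GC correction 14 fell and 1 rose in the first, beside 31.4% and 22.3% of all genes. In the second 10 fell and 1 rose after it, beside 27.2% and 23.5%. Upf1, the central helicase of the pathway, stood at log2 -0.67 (edgeR adjusted p = 2.06e-22) and its partner Upf2 at -0.59 without doxycycline. With doxycycline Upf2 stood at -0.65 and Smg1, the kinase that phosphorylates Upf1, at -0.53. Doxycycline alone gave 9 lower and 2 higher, beside 18.7% and 14.8% of all genes, with the exon junction genes Rbm8a at -0.25 and Eif4a3 at -0.23.
Of 15 tested decapping, deadenylation and 5′-to-3′ decay genes, 11 fell and 2 rose in each dTAG-13 comparison (medians -0.35 and -0.32), where 32.1% and 33.4% of all genes were lower and 30.0% and 30.7% higher. With the length and GC correction 11 and 9 fell, where 31.4% and 27.2% of all genes were lower. Dcp1a at -0.56 and Dcp2, the decapping enzyme, at -0.53 fell without doxycycline, and in doxycycline-treated cells Patl1 stood at -0.54 and Lsm1 at 0.58. With doxycycline alone 3 rose and 3 fell, shares near the 14.8% and 18.7% of all genes. Pan2 stood at 0.20 and Xrn1, the main 5′-to-3′ exonuclease, at 0.15. The Pan2 call was lost without doxycycline library 3, at 0.16 (edgeR adjusted p = 0.0513). That of Xrn1 was lost without doxycycline library 1, at 0.14 (edgeR adjusted p = 0.0614), and with the length and GC correction, at 0.062 (edgeR adjusted p = 0.334).
Of 9 protein-coding genes known as decay substrates, 5 rose and 1 fell in dTAG-13 against control (median 0.24), where 30.0% of all genes were higher and 32.1% lower. In doxycycline-treated cells 8 rose (median 0.34), beside 30.7% of all genes. After the length and GC correction 3 rose and 4 fell in the first, beside 22.3% and 31.4% of all genes, and 6 rose in the second, beside 23.5%. Atf3, a stress-response transcription factor, stood at 0.52 and 0.98, Gadd45a at 0.33 without doxycycline, and the splicing factor gene Srsf3 at 0.56 with it. In doxycycline against control 7 of the 9 fell, beside 18.7% of all genes, with Atf3 at -0.71 and Srsf3 at -0.26.

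Genes for the proteins that bind snoRNAs mostly fell with doxycycline alone. Of 17 snoRNP core and assembly genes, 13 fell with doxycycline alone (median -0.18), where 18.7% of all genes were lower, while the hosts gave 2 higher and 2 lower. Fbl, the methyltransferase of box C/D particles, stood at -0.52 and Gar1, a box H/ACA protein, at -0.46. In dTAG-13 against control 6 rose and 6 fell, shares near the 30.0% and 32.1% of all genes, with Znhit3, a box C/D assembly factor, at 0.43 and Gar1 at -0.41. With the length and GC correction 4 rose and 10 fell there, beside 22.3% and 31.4% of all genes, and Znhit3 was not called at 0.091 (edgeR adjusted p = 0.167). In doxycycline-treated cells 12 rose and 1 fell (median 0.19), beside 30.7% and 33.4% of all genes. After the correction 7 rose and 3 fell, beside 23.5% and 27.2%. In this comparison Znhit3 stood at 0.69 and Nop10, another box H/ACA protein, at 0.50. The interaction term was called above 0 for 11 of the 17, beside 13.2% of all genes, and for 9 after the correction, beside 15.3%. Between the dTAG-13 groups 3 were higher with doxycycline and 1 lower, beside 10.7% and 9.64% of all genes. The comparison of doxycycline with control, the one in doxycycline-treated cells and the interaction share the same doxycycline libraries, so their counts are not independent.

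The genes whose profile over the 12 libraries was most like the mean profile of the 9, among 9097 other genes of at least 10 CPM, were Sec11c (Pearson r 0.995), Bcap31 (0.994), Commd6 (0.994), 2410006H16Rik (0.991) and Trappc3 (0.990), values that describe libraries sharing 4 cultures. Sec11c, a signal peptidase subunit gene, was at 30.0 ± 0.555 CPM in control, 29.5 ± 1.17 with doxycycline, 45.1 ± 2.90 with dTAG-13 and 44.7 ± 1.16 with both (SD, n = 3). 2410006H16Rik went from 211 ± 4.74 CPM in control to 342 ± 14.0 with dTAG-13. The transcripts of these 5 genes are 462 to 1336 nt long; those of the host genes are 400 to 1004 nt long.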

How the data were processed

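RNA was measured in 12 poly(A) libraries, 3 technical replicates of 1 biological sample in each of 4 groups, per the labels. The authors deposited raw read counts per Entrez gene ID, with no normalization. Per the file headers reads were aligned with Subread, and per the submitters' processing notes bcl2fastq 2.17, featureCounts and the mm10 genome were used; no source used here gives the annotation, the strand setting or the handling of reads with several hits. All 12 columns matched a library. Symbols came from RefSeq (GRCm38.p6) and GENCODE M21 for 25293 of 27179 IDs; the other 1886 hold 2.10% of reads.

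Genes were filtered with filterByExpr (12910 left), scaled by TMM (factors 0.965 to 1.03) and tested in edgeR 4.0.16 (R 4.3.3) with the robust quasi-likelihood F test, two-sided, 1 mean per group over 12 libraries, 6 contrasts, with Benjamini-Hochberg adjustment over all tested genes and calls at an adjusted p under 0.05. SE was derived from the fold change and F. Transcript lengths, GC content and snoRNA sequences came from GENCODE M21. Libraries of a group differed beyond sampling noise (chi-square per degree of freedom 2.43 to 8.80). The code was tested on simulated data. Alternatives were RLE size factors, library size only, DESeq2 1.42.0, no filter, 1 CPM in 3 libraries, a fit on the compared groups alone, a replicate block, a length and GC correction (splines with 5 degrees of freedom, fitted per library) and leaving out each library. Text names all 9 genes, the snoRNA rows that passed the filter, neighbours within 1 kb or overlapping (1 is not reported here), the 2 called genes of each list with the largest change in 3 contrasts (other lists than cell markers), and the 5 genes nearest in profile. Members and lists were chosen with earlier results of these data known.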

Additional observations from a re-analysis of the deposited data

Results flagged for a closer look

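The response to dTAG-13 differed between cells with and without doxycycline for 5 of the 9 host genes by the interaction term of the edgeR fit, beside 22.9% of all tested genes. On the log2 scale the difference, with doxycycline minus without it, was -0.39 for Snhg12 (adjusted p = 0.00122), 0.28 for Snhg8 (0.00792), 0.36 for Snhg15 (0.0154), 0.18 for Snhg6 (0.0280) and -0.17 for Snhg5 (0.0345). For Snhg12 the call held in all 19 alternative fits, and for Snhg8 in 18 of 19, the exception being the length and GC correction. The calls of Snhg15, Snhg5 and Snhg6 held in 14, 12 and 10 of 19.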

How the results depend on the processing

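The counts of 8 host genes higher in dTAG-13 against control, in doxycycline plus dTAG-13 against doxycycline and against control ran from 6 to 9 over all alternatives. For doxycycline against control, library size alone gave 1 lower in place of 2 and 3 higher in place of 2, the length and GC correction also 3 higher (Gas5 gained in both), the compared groups alone 3 lower (Zfas1 gained), and leaving out 1 library gave 0 to 2 higher and 1 to 2 lower. Between the dTAG-13 groups, RLE, DESeq2, no filter and the replicate block each gave 2 higher in place of 1, the length and GC correction 0 higher and 5 lower, and single libraries left out 1 to 2 higher and 0 to 3 lower. For the interaction, library size alone gave 1 higher in place of 3, DESeq2 1 lower in place of 2, the length and GC correction 0 higher and 4 lower, and single libraries left out 1 to 3 higher and 1 to 2 lower. Genes with a pyrimidine run numbered 2 in place of 4 at the annotated base alone, which searches fewer positions; for the rest the cause was not tested.

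Signs turned with the length and GC correction for Snhg8 in dTAG-13 against control (-0.0082), Snhg3 in doxycycline plus dTAG-13 against doxycycline (-0.31) and against control (-0.25), Gas5 (-0.098) and Snhg15 (-0.040) between the dTAG-13 groups, and Snhg6 in the interaction (-0.00055). With library size alone Gas5 turned to -0.029 there. Leaving out 1 library turned values near 0: Snhg3 (-0.13 to 0.30) and Snhg6 (-0.019 to 0.056) with doxycycline, Gas5 (-0.0093 to 0.039) and Snhg3 (-0.37 to 0.018) between the dTAG-13 groups, and Snhg1 (-0.071 to 0.0090) in the interaction. Of 1065 values for single genes under alternatives, 977 kept direction and side of the threshold, 46 lost and 23 gained a call, and 19 turned. Library size alone moved the median of all genes to 0.11 in dTAG-13 against control. Same-numbered libraries deviated with a correlation of -0.017 to 0.081, other pairs -0.063 to 0.066, and 4 of 12 libraries correlated best with their own number, so the numbers were not taken as pairs. Technical replicates of single cultures, and 10 to 31 reads on Snhg3, limit every comparison.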
